A study of Mus musculus with 18 samples.

Results

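Polyamines are small, positively charged molecules that cells make from ornithine and use in translation, growth and the control of ion channels. Ornithine decarboxylase makes putrescine, and spermidine synthase and spermine synthase then add aminopropyl groups that come from decarboxylated S-adenosylmethionine. Spermine oxidase, and the acetyltransferase SAT1 together with PAOX, run the path backwards, while antizyme and antizyme inhibitor set the amount of ornithine decarboxylase. In skeletal muscle this pathway is known for its link to fibre growth and to atrophy.

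The 9 genes of this pathway described here were taken by symbol from the 23425 genes of the RNA-seq table: Odc1, Azin1 and Oaz1 (entry into the pathway and its control), Amd1, Srm and Sms (synthesis), and Smox, Sat1 and Paox (oxidation and acetylation). The RNA came from powdered whole hindlimb muscle of female C57BL/6J mice aged 2 months (2 m, young), 20 months (20 m, aged) and 28 months (28 m, superaged), with 3 libraries per age from separate mice, and the labels give no treatment or genetic change for any group. MBD-seq, in which the methylated part of the DNA is pulled down by a protein domain that binds methyl-CpG and is then sequenced, was done on DNA of 3 mice pooled per age, from hindlimb muscle and, for comparison, from splenic T cells. Age comparisons of RNA therefore rest on 3 mice against 3, and those of captured DNA on 1 pool against another. In bulk muscle, fewer cells of a type and less RNA per cell cannot be told apart.

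The results turned on Odc1 and Smox, so the 300 bases around their start sites are shown (250 before and 50 after the start, RefSeq, GRCm38.p6, which has the coordinates of mm10), 5′ to 3′ in the direction of the gene, with each GC box in capitals. The Odc1 window is chr12:17544623-17544922 on the plus strand and the Smox window is chr2:131491612-131491911 on the plus strand.
Odc1: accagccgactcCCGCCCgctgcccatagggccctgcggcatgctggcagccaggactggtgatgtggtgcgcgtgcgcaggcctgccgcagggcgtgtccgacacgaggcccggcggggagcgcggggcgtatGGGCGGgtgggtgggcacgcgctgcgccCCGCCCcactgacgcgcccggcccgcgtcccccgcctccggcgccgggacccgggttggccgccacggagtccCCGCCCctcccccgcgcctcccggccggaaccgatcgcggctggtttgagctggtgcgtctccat
Smox: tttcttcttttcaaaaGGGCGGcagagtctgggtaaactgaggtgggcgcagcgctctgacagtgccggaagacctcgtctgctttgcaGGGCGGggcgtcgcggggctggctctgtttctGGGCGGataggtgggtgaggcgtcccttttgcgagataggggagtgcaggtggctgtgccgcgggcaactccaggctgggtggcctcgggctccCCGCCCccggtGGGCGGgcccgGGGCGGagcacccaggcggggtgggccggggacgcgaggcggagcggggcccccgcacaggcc
Both windows were rich in CpG, the dinucleotide that is methylated in mammals: 42 CpG in that of Odc1 and 27 in that of Smox, against a median of 7 over 32851 promoter windows. These windows leave out 1 chromosome, on which no member lies, and are the windows meant by all windows below. The GC box (GGGCGG, searched on both strands, as were all motifs) occurred 4 times in the Odc1 window and 6 times in the Smox window, and 35.7% of all windows held at least 1. Neither window held the E-box CACGTG, the cAMP response element TGACGTCA or the TATA box TATAAA, which were present in 7.15%, 1.79% and 13.6% of all windows. Of the 7 members with an entry in the promoter table (Srm and Azin1 had none), 5 held a GC box in their first listed window, 1 (Sms) an E-box, 1 (Oaz1) a TATA box and 0 a cAMP response element. No match of 1 motif overlapped a match of another in these windows.

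Between 2 m and 28 m, Odc1 rose 1.48-fold and Smox fell by 39.7%, and none of the other 6 members tested passed the threshold with age as the only term. Between 2 m and 20 m, and between 20 m and 28 m, no member passed it in that fit. With a batch term for the libraries numbered 3, which stood apart at every age, Odc1 and Azin1 passed between 2 m and 20 m. Oaz1 was then added between 2 m and 28 m. With that term 2836 of the 13183 genes tested passed between 2 m and 20 m, against 2181 without it. Between 2 m and 28 m the term gave 2420, against 1816. The test was limma on log2(normalized count + 1) over the 13183 genes that averaged 10 or more normalized counts, with Benjamini-Hochberg adjustment over all of them and a threshold of 0.05 on the adjusted p. Amd1 did not reach that mean, so 8 of the 9 members were tested. With age as the only term, 13.8% of all genes passed between 28 m and 2 m, beside 2 of the 8 members (1 higher, 1 lower). Of all genes, 7.53% were higher at 28 m and 6.24% lower. Between 20 m and 2 m the share was 16.5% (9.43% higher at 20 m, 7.12% lower), and between 28 m and 20 m it was 0.379% (0.212% higher at 28 m, 0.167% lower). At an unadjusted p under 0.05 the members numbered 4 between 20 m and 2 m, 3 between 28 m and 2 m and 1 between 28 m and 20 m, where 31.5%, 28.1% and 10.6% of all genes did so. The members' median log2 fold change was -0.17, -0.15 and -0.09 in these 3 comparisons, beside -0.02, -0.01 and 0.00 over all genes.

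**Figure D1:**
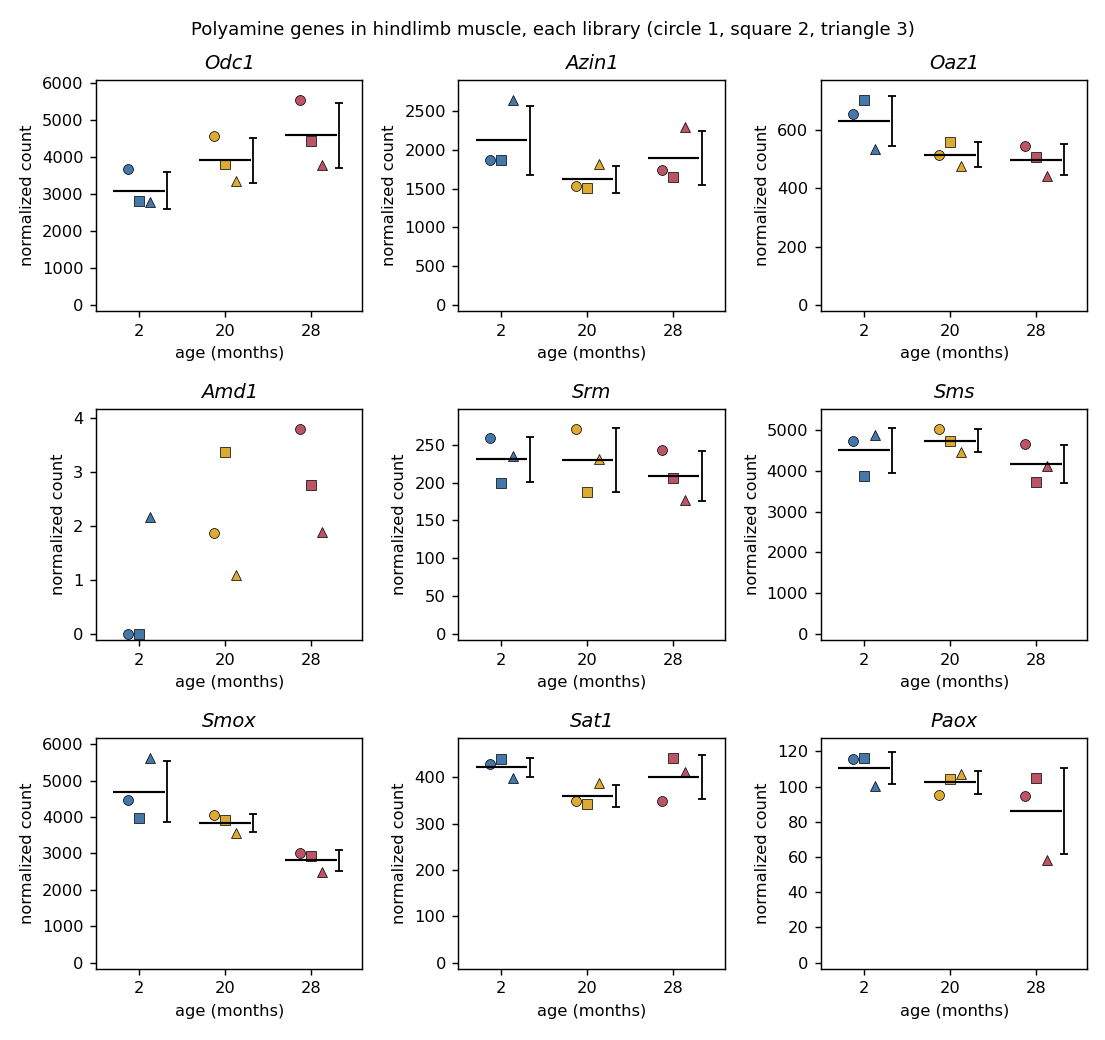
Normalized count (linear axis) of each polyamine gene in each of the 9 libraries by age in months, with the mean (line) and SD (bar) of 3 libraries, left out for Amd1. The 3 Odc1 values at 28 m, from 3782 to 5537, lie above all 3 at 2 m, and the 3 Smox values at 28 m, from 2491 to 3017, lie below all others.

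Library size and composition differed between libraries within every age. The totals of recovered counts ran from 33051271 to 121485345 per library, and the libraries numbered 3 had lower sums of normalized counts at all 3 ages, from 62379192 to 66187826 against 87711925 to 98056025 in the others. The 10 most abundant genes held 53.9% to 55.3% of the counts in the libraries numbered 3 and 65.6% to 69% in the others. What this number stands for is not given by the labels, so values within the libraries numbered 1 and 2, and within those numbered 3, are given beside the 2 called members. Muscle fibre markers were abundant at every age, with a summed normalized count of 4797000 to 6361000, and 1 of the 8 was higher and 2 were lower at 28 m than at 2 m.

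Odc1 (chr12:17544808-17551502, plus strand) encodes ornithine decarboxylase, which commits ornithine to the pathway. Its normalized counts were 3671, 2816 and 2777 in 2-m muscle, 4564, 3823 and 3338 in 20-m muscle, and 5537, 4430 and 3782 in 28-m muscle. All 28-m values were above all 2-m values, whereas the 20-m values overlapped both other ages. The mean rose from 3088 ± 505 (SD, n = 3) at 2 m to 4583 ± 887 at 28 m, a log2 difference of 0.56 ± 0.15 (SE, 95% interval 0.24 to 0.89, limma adjusted p = 0.027). Between 20 m and 2 m the log2 difference was 0.34 (adjusted p = 0.145, or 0.049 with the batch term), and between 28 m and 20 m it was 0.22 (adjusted p = 0.652). Within the libraries numbered 1 and 2 the difference between 28 m and 2 m was 0.62 (adjusted p = 0.047), and it was 0.45 between the libraries numbered 3. The call was lost without 2-m library 2 (limma adjusted p = 0.066) or 3 (0.080), or without 28-m library 1 (0.119) or 2 (0.065), and also when all libraries were rescaled to the same sum (log2 difference 0.63, adjusted p = 0.302). Over the 21 alternatives the adjusted p ran from 0.00018 to 0.302, and it passed in 16. Copies of at least 98% identity covered 5.54% of the Odc1 exonic bases, and copies of at least 90% identity covered 96.1%.

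Azin1 (chr15:38487430-38519294, minus strand) encodes antizyme inhibitor, which resembles ornithine decarboxylase and binds antizyme in its place. It was 1872, 1866 and 2644 in 2-m muscle, 1541, 1507 and 1824 in 20-m muscle, and 1742, 1650 and 2303 in 28-m muscle. The 20-m values lay below all 2-m values, and at each age the library numbered 3 was the highest. The log2 difference between 20 m and 2 m was -0.37 (95% interval -0.70 to -0.05, limma adjusted p = 0.110). It passed in the same fit with the libraries numbered 3 as a batch term (adjusted p = 0.0042), as did Odc1 (adjusted p = 0.049), while over the 21 alternatives it ran from 0.0042 to 0.856 for Azin1 and from 0.0040 to 0.815 for Odc1.

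Oaz1 (chr10:80826656-80829290, plus strand) encodes antizyme, which sends ornithine decarboxylase to the proteasome. Its counts were 655, 703 and 536 at 2 m, 514, 560 and 476 at 20 m, and 547, 510 and 442 at 28 m. The highest 2 values were both at 2 m, but the groups overlapped through 2-m library 3. The log2 difference between 28 m and 2 m was -0.34 (95% interval -0.62 to -0.05, limma adjusted p = 0.112), and with the batch term the adjusted p was 0.034 (0.034 to 1.00 over the 21 alternatives). Of the 1075 exonic bases of Oaz1, 96.9% lay in a copy elsewhere of at least 98% identity (Oaz1-ps, on chromosome 17), so its level is uncertain.

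Amd1 (chr10:40287458-40302188, minus strand) encodes S-adenosylmethionine decarboxylase, the source of the aminopropyl groups. It was nearly absent from the table, with 0, 0 and 3 recovered reads at 2 m, 1, 2 and 2 at 20 m, and 2, 2 and 1 at 28 m, and no fold is given. Almost all of its exonic sequence (99.8% of 3206 bases) had a copy of at least 98% identity elsewhere. The longest of these was Amd2, a gene on the same chromosome, which matched it over 3202 bases with 99.6% identity and was listed at 0 in all libraries. How reads that match several places were counted is not given in the sources used here, so these values do not give the level of Amd1 mRNA.

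Srm (chr4:148591513-148594619, plus strand) encodes spermidine synthase. Its counts were 259, 199 and 235 at 2 m, 271, 187 and 232 at 20 m, and 243, 206 and 177 at 28 m, so the 3 ages overlapped. The interval of the log2 difference between 28 m and 2 m ran from -0.54 to 0.25, which does not show that the ages were equal. Sms (chrX:157443851-157492287, minus strand) encodes spermine synthase, with 4739, 3871 and 4890 at 2 m, 5025, 4738 and 4463 at 20 m, and 4651, 3737 and 4113 at 28 m. The ages overlapped here too, and the interval between 28 m and 2 m was the narrowest of the members, from -0.34 to 0.12. Copies of at least 98% identity covered 42.6% of the Sms exonic bases.

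Smox (chr2:131491858-131525183, plus strand) encodes spermine oxidase, which turns spermine back into spermidine and releases hydrogen peroxide. It was 4476, 3975 and 5618 in 2-m muscle, 4044, 3913 and 3548 in 20-m muscle, and 3017, 2915 and 2491 in 28-m muscle. Every 28-m value was below every value at the other ages, while 2 m and 20 m overlapped. The mean fell from 4690 ± 842 (SD, n = 3) at 2 m to 3835 ± 257 at 20 m and 2808 ± 279 at 28 m. The log2 difference between 28 m and 2 m was -0.73 ± 0.12 (SE, 95% interval -0.99 to -0.47, limma adjusted p = 0.0017). The step from 2 m to 20 m was -0.28 (adjusted p = 0.132) and that from 20 m to 28 m was -0.45 (unadjusted p = 0.0023, adjusted p = 0.153). The last step passed with DESeq2 on the recovered counts (adjusted p = 0.040) and in no other alternative (adjusted p up to 1). Within the libraries numbered 1 and 2 the difference between 28 m and 2 m was -0.51 (adjusted p = 0.015), and it was -1.17 between the libraries numbered 3. The call held without any 1 library (limma adjusted p from 0.00040 to 0.011) and was lost when the libraries were rescaled to the same sum (log2 difference -0.66, adjusted p = 0.252), the only 1 of the 21 alternatives in which it did not pass. No copy of at least 98% identity was found for any Smox exonic base, but 175 of them lie under the antisense gene Gm30679, and with a library kit that does not mark strand the reads of both cannot be told apart there.

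Sat1 (chrX:155213126-155216449, minus strand) encodes the acetyltransferase that marks spermidine and spermine for oxidation or export. It was 428, 439 and 398 at 2 m, 349, 343 and 387 at 20 m, and 349, 442 and 411 at 28 m. The 20-m values lay below all 2-m values, with a log2 difference of -0.23 (95% interval -0.50 to 0.04, limma adjusted p = 0.235), and the 28-m values spanned both. No Sat1 base had a copy of at least 98% identity elsewhere, but 90.9% had one of at least 90%. Paox (chr7:140115735-140134334, plus strand), the oxidase that acts on acetylated polyamines, was 116, 116 and 100 at 2 m, 95, 105 and 107 at 20 m, and 95, 105 and 59 at 28 m. Its 28-m mean was 86.1 ± 24.4 (SD, n = 3), with library 3 far below the other 2, and the log2 difference to 2 m was -0.40 (95% interval -0.92 to 0.12, limma adjusted p = 0.302). Copies of at least 98% identity covered 87.3% of the Paox exonic bases, the longest of them at Gm19680 on chromosome 1.

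**Figure D2:**
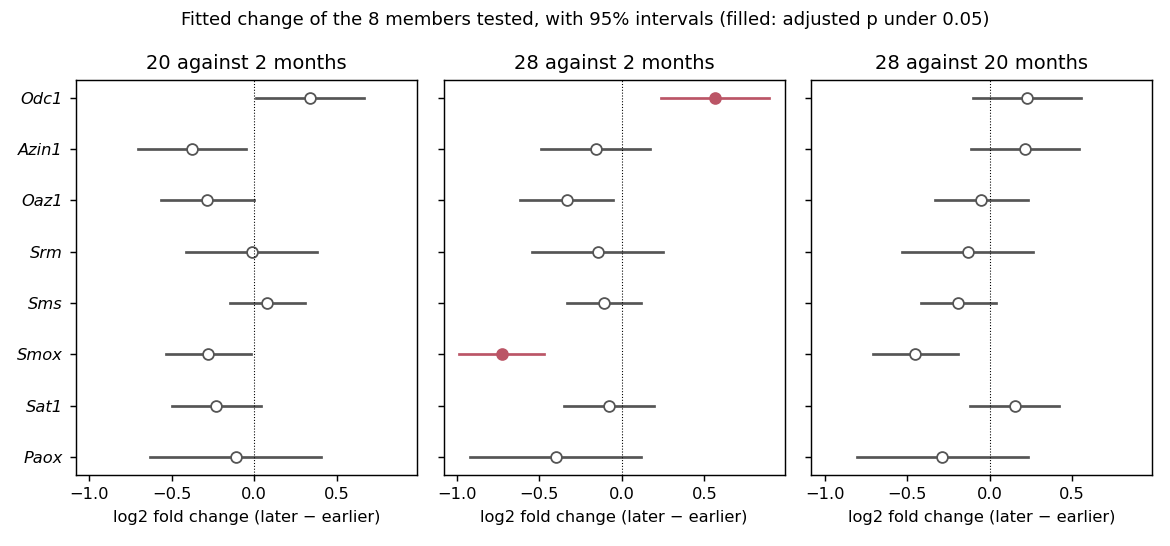
Log2 fold change of the 8 members tested (later minus earlier age, on the log2(normalized count + 1) scale) with its 95% interval, for the 3 comparisons. Filled points passed an adjusted p of 0.05: only Odc1 (0.56) and Smox (-0.73) between 28 m and 2 m are filled.

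Counted by overlap, 2 of the 8 members tested had no overlap between 20 m and 2 m (Azin1 and Sat1, both lower), where 36.0% of all genes had none. Between 28 m and 2 m there were again 2 (Odc1 higher, Smox lower), against 30.3% of all genes, and between 28 m and 20 m there was 1 (Smox), against 17.5%. These shares of members were below or near those of all genes.

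Per length, as normalized count per kb of exonic sequence, the order of the leading genes differed with age. At 2 m Smox was the most abundant member (1757 to 2484 over the 3 libraries), above Odc1 (1090 to 1441) and Sms (1019 to 1288), which overlapped each other. At 20 m Smox (1568 to 1788) and Odc1 (1311 to 1792) overlapped. At 28 m Odc1 led (1485 to 2174), above Smox (1101 to 1334) and Sms (984.0 to 1225), which overlapped. Oaz1, Azin1, Sat1, Srm and Paox followed in that order of their means over the 3 ages (511, 375, 308, 168 and 56.6), where Oaz1, Paox and Sms are uncertain because of their copies.

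The ratio of Odc1 to Smox within a library does not depend on how the libraries are scaled to each other. It was 0.82, 0.708 and 0.494 at 2 m, 1.13, 0.977 and 0.941 at 20 m, and 1.84, 1.52 and 1.52 at 28 m, so no age overlapped another. The mean log2 ratio was -0.60 ± 0.38 (SD, n = 3) at 2 m, 0.02 ± 0.14 at 20 m and 0.69 ± 0.16 at 28 m. This ratio was chosen after the values of both genes were seen, and it is given without a test.

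**Figure D3:**
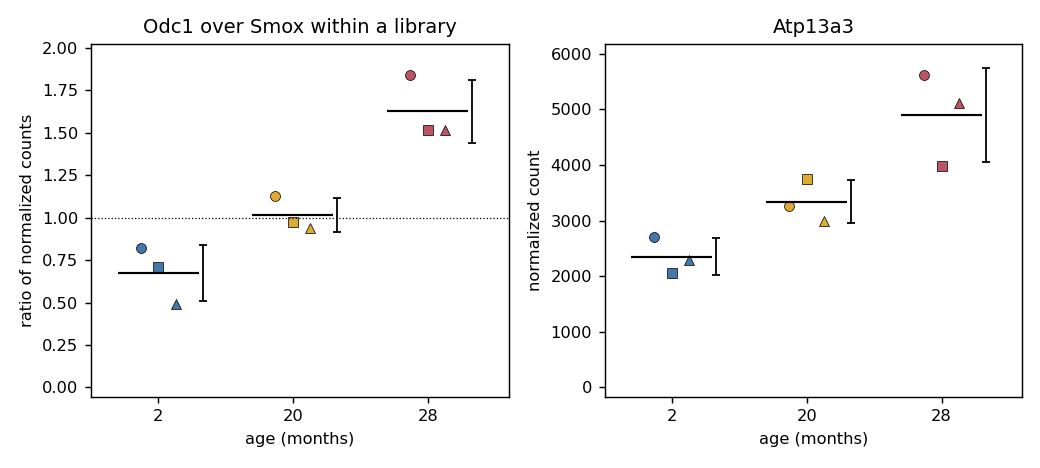
Ratio of the Odc1 to the Smox normalized count in each library (left) and normalized count of Atp13a3 in each library (right) by age in months, with the mean (line) and SD (bar) of 3 libraries. The ratio ran from 0.494 to 0.82 at 2 m and from 1.52 to 1.84 at 28 m, and Atp13a3 from 2051 to 2706 and from 3975 to 5615.

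Of 38 other genes of polyamine biology in 5 lists, 27 were tested and 4 passed in at least 1 comparison, where 20.9% of all genes tested did so. Among 7 genes of polyamine transport tested, 2 were higher at 20 m and 1 at 28 m than at 2 m, and 0 were lower. Atp13a3, a P5B-type ATPase of the polyamine transport system, was 2706, 2051 and 2287 at 2 m, 3267, 3753 and 2999 at 20 m, and 5615, 3975 and 5120 at 28 m. The 3 ages did not overlap: it rose 1.43-fold by 20 m (log2 difference 0.51, limma adjusted p = 0.023) and 2.08-fold by 28 m (1.06, adjusted p = 0.00031), while the step from 20 m to 28 m did not pass (0.55, adjusted p = 0.128). Slc22a2, an organic cation transporter, was close to the floor, with 4.46, 1.76 and 0 at 2 m, 16.8, 32.1 and 26.7 at 20 m, and 3.80, 34.5 and 20.8 at 28 m. It rose by 3.36 ± 0.89 (SE) on the log2(normalized count + 1) scale at 20 m (adjusted p = 0.023) and at 28 m differed by 2.65 (adjusted p = 0.067).

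In the methionine cycle and salvage list, 1 of 8 genes tested was lower at 20 m than at 2 m and 0 passed at 28 m. This was Mat2a, whose product makes S-adenosylmethionine, with 3651, 4021 and 6205 at 2 m, 3168, 2813 and 3400 at 20 m, and 3577, 3197 and 3952 at 28 m. It fell by 0.53 on the log2 scale at 20 m (limma adjusted p = 0.042). Of 4 genes tested among other members of the same enzyme and regulator families, 1 was lower at 20 m: Oaz2, a second antizyme, with 5338, 6206 and 5504 at 2 m against 4616, 4616 and 4844 at 20 m (log2 difference -0.27, adjusted p = 0.037) and 4731, 5388 and 4820 at 28 m. In the lists for arginine and ornithine supply (4 tested) and for hypusine, the spermidine-derived residue of EIF5A (4 tested), 0 genes passed in any comparison. Between 28 m and 20 m, 0 genes of the 5 lists passed. The alternative fits were followed gene by gene for the members only. Whether the calls of Atp13a3, Slc22a2, Mat2a and Oaz2 hold under them was not examined.

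The 5 genes whose log2 values followed Smox most closely over the 9 libraries were Tmem5 (Pearson r = 0.971), Zfp275 (0.969), Hoxc6 (0.965), Zcchc5 (0.962) and Tmem79 (0.962). The libraries share their age groups and depth, so these values are a description only. Their log2 differences between 28 m and 2 m were -0.54, -0.47, -1.29, -3.15 and -1.97, a direction that the choice by likeness to Smox largely fixes and that is given without a test. Among the members, the log2 values of Odc1 and Smox had r = -0.563 over the same 9 libraries, and over all pairs r ran from -0.712 (Sat1 and Sms) to 0.699 (Oaz1 and Paox).

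Other groups of genes moved with age in the same libraries. All 8 slow fibre markers were higher at 28 m than at 2 m, with a summed normalized count of 14990 to 121200 at 2 m, 169400 to 299600 at 20 m and 209000 to 264000 at 28 m. All 10 denervation markers were higher at 28 m, with sums of 3379 to 3921, 4550 to 5764 and 8317 to 8974. Of 7 fibroblast and collagen markers, 3 were lower at 28 m (sums of 53420 to 109700 at 2 m and 23830 to 32370 at 28 m), and of 6 adipocyte markers 2 were lower (7234 to 11020 and 4704 to 6887). Of the macrophage (7 tested), endothelium (5), red blood cell (2) and T and B cell (4) markers, 0 passed between 28 m and 2 m, and of 6 marrow neutrophil markers tested 1 was lower, with a summed count of up to 5140 in 1 library at 2 m and at most 74.2 at the later ages. Between 20 m and 2 m, 8 of 8 slow fibre and 6 of 10 denervation markers were higher, and 3 of 7 fibroblast and collagen, 3 of 7 macrophage, 4 of 6 adipocyte and 1 of 6 marrow neutrophil markers were lower. The part of these groups in the differences of Odc1, Smox, Atp13a3, Slc22a2, Mat2a and Oaz2 was not tested.

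MBD-seq signal was summed over the 500-base bins that overlap 1000 bases either side of each start site and is given as the normalized count per bin. At the start of Odc1 it was 1.46 at 2 m, 2.86 at 20 m and 6.50 at 28 m in muscle, against 3.86, 3.41 and 0.793 in T cells. Those muscle values rest on 8, 17 and 51 recovered reads, and the ratio of 28 m to 2 m was 4.47 (95% conditional binomial interval 2.10 to 10.9). At the start of Smox the muscle values were 15.3, 10.3 and 6.12, from 84, 61 and 48 reads, with a ratio of 0.400 (0.275 to 0.578), while the T-cell values were 19.9, 24.6 and 29.1. Over all 20943 genes with a RefSeq mRNA the median in muscle was 8.37, 8.42 and 10.7, so Odc1 lay below the median of all genes at each age and Smox, above it at 2 m and 20 m, lay below it at 28 m. The labels list 2 muscle captures per age from the pooled DNA, and which of them each column holds is not named, so each age gives 1 value and the ages could not be tested. The intervals treat the recovered reads as independent, and they are too narrow if 1 read was counted in more than 1 bin.

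Sat1 and Sms, both on the X chromosome, had the highest muscle signal of the members, 28.0 and 24.9 at 2 m and 13.9 and 16.2 at 28 m, with ratios of 0.496 (0.384 to 0.638) and 0.650 (0.506 to 0.833). Oaz1 was as low as Odc1 at 2 m (1.46) and reached 5.99 at 28 m, with a ratio of 4.12 (1.93 to 10.1). For Amd1, Azin1, Srm and Paox the interval of the ratio included 1. The paper describes, for its oldest muscle, gains of methylation in weakly methylated regions and losses in strongly methylated ones. Among the members, Odc1 and Oaz1 had the lowest muscle signal at 2 m and were higher at 28 m. Sat1, Sms and Smox had the highest at 2 m and were lower at 28 m. Whether these steps differ from those of other genes with like signal at 2 m was not tested. With all 6 columns rescaled to the same sum, the muscle ratio remained over 1 with its interval for Odc1 (6.08, 2.86 to 14.8) and Oaz1 (5.60, 2.62 to 13.7), and under 1 for Smox (0.545, 0.374 to 0.786) and Sat1 (0.675, 0.523 to 0.868). That of Sms then included 1 (0.884, 0.689 to 1.13), those of Paox (1.82, 1.26 to 2.67) and Amd1 (interval 1.01 to 2.24) no longer did, and Srm moved from 0.742 to 1.01. Summed over the 9 members, the muscle signal at 28 m was 0.800 times that at 2 m (0.712 to 0.899), and 1.09 times when all 6 columns were rescaled to the same sum, so its direction depends on the scaling.

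**Figure D4:**
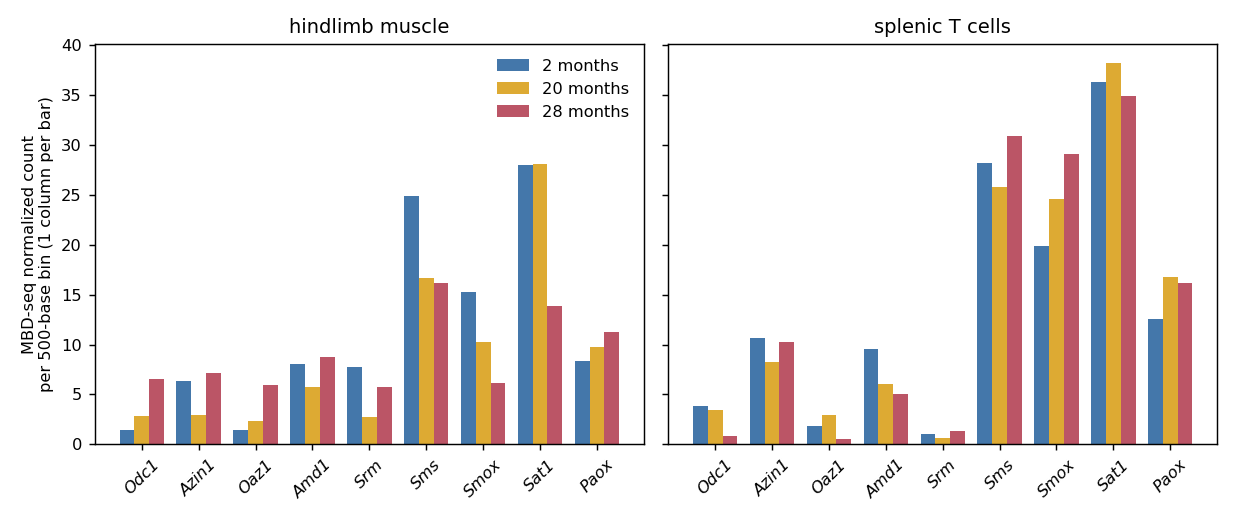
MBD-seq normalized count per 500-base bin around the start site of each member in muscle (left) and splenic T cells (right) at 2, 20 and 28 months, 1 column per bar. In muscle the Smox bars step down from 15.3 to 6.12 and the Odc1 bars step up from 1.46 to 6.50, and in T cells the order of these ages is the opposite for both genes.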

How the data were processed

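Poly-A RNA-seq and MBD-seq values were used as deposited. Per the labels and methods, the authors trimmed reads, aligned them to mm10, counted them per gene with htseq-count (RNA) or per 500-base bin (MBD), and divided the counts by DESeq2 size factors, so the deposited signal is a normalized count. How reads with several matches were counted is not given in the sources used here, and for some libraries the recovered total exceeded the aligned reads the study lists, so 1 recovered count may not be exactly 1 read.

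RNA values were tested with limma 3.58.1 (R 4.3.3) on log2(normalized count + 1), with age as the only term, over all 9 libraries and genes with a mean of at least 10, and adjusted by Benjamini-Hochberg. Each value was a whole multiple of its library's smallest (100% within 0.001), which gave recovered counts for edgeR 4.0.16 and DESeq2 1.42.0 as alternatives. On simulated counts the fit recovered 83.5% of 200 genes changed 2-fold among 13183 (28 against 2 months), with 6 unchanged genes called. Other pseudocounts, filters, scalings, a replicate block, a batch term and subsets of libraries were also tried. Copies were found with blastn 2.17.0, and the binomial intervals of the MBD-seq ratios cover counting error only, whereas the limma intervals come from the spread between libraries. For MBD-seq the labels list 2 muscle captures per age, and which of them each muscle column holds is not named. Whether 1 read was counted in more than 1 bin is not given in the sources used here, but the recovered totals exceed the mean reads per age group in the paper.

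The members and lists were chosen with earlier results of these data known. All 9 members are named, then up to 4 called genes per list by smallest adjusted p, and the 5 genes closest to the called member with the largest change. Azin2 and Aoc1 were matched by the older symbols Adc and Abp1. Whether samples with 1 replicate number came from 1 batch is not stated.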

Additional observations from a re-analysis of the deposited data

Results flagged for a closer look

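Single outlying libraries were not tested for, since each group held 3. At 5 of the 9 start sites the MBD-seq signal at 28 m lay on opposite sides of that at 2 m in muscle and in T cells, both as deposited and with all columns rescaled to the same sum, as was so for 37.6% of all 20943 genes. The muscle difference (28 m minus 2 m, normalized count per bin) was 5.05 at Odc1, 4.54 at Oaz1, 0.80 at Azin1, 0.79 at Amd1 and -9.16 at Smox. The T-cell difference was -3.06 at Odc1, -1.30 at Oaz1, -0.41 at Azin1, -4.52 at Amd1 and 9.18 at Smox. Muscle and T cells were not tested against each other, since each value comes from 1 pool. As deposited, the counting interval of the ratio of 28 m to 2 m included 1 in T cells for Oaz1 (0.0304 to 1.40) and Azin1 (0.584 to 1.57), and in muscle for Amd1 (0.742 to 1.64) and Azin1 (0.687 to 1.87), so that it lay clear of 1 in both tissues for Odc1 and Smox only. With the rescaled sum the T-cell interval of Smox also included 1 (0.881 to 1.55), and those of Amd1 lay clear of 1 in muscle (1.01 to 2.24) and in T cells (0.233 to 0.730). All of these intervals are probably too narrow, since reads were probably counted more than once.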

How the results depend on the processing

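Of 504 member values under the alternatives, 490 kept their direction or stayed uncalled, 6 lost a call, 8 gained one and 0 called values changed sign. Members called between 20 m and 2 m numbered 0, but 2 with the replicate block (Odc1 and Azin1) and 2 with the batch term, and 0 to 1 when 1 library was left out (Smox without 2-m library 2). Between 28 m and 2 m they numbered 2, but 3 with the replicate block and 3 with the batch term (Oaz1 added), 0 with libraries rescaled to the same sum and 1 to 2 without 1 library, and between 28 m and 20 m 0, but 1 with DESeq2. All genes called between 20 m and 2 m numbered 2181, but 389 with libraries rescaled to the same sum, 1099 with the libraries numbered 1 and 2 only and 1083 to 2227 without 1 library. Between 28 m and 2 m they numbered 1816, but 417, 694 and 963 to 1850 in the same order. The share higher was then 65% with the rescaled sum, against 54.7%. The member calls added by the block and the batch term came with more calls over all genes. With the block, all genes called numbered 2982 (20 m against 2 m) and 2523 (28 m against 2 m). With the batch term they numbered 2836 and 2420. Between 28 m and 20 m they numbered 50, but 31 with the rescaled sum, 227 with DESeq2, 143 with the replicate block, 108 with the batch term, 10 with the libraries numbered 1 and 2 only, 76 with only the 6 libraries compared and 14 to 88 without 1 library. The share higher was 71% with the rescaled sum and 20% with the libraries numbered 1 and 2 only, against 56%. The ratio of captured signal moved from 0.800 to 1.09 with the rescaled sum. The cause of these changes was not tested. Between libraries of the same number, deviations from the age means had r of 0.111, 0.151 and 0.163 for those numbered 3 and -0.0398 to 0.1 for the others. Libraries of unlike numbers were not compared in this way, so these values cannot decide whether the numbers pair the samples. Paox had the fewest recovered reads of the members tested, 31 to 197 per library.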
